A study of Homo sapiens with 9 samples.

Results

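The genes described here are 42 of the 32378 in the count table of SKOV3, an established human ovarian carcinoma cell line. They are long non-coding RNA genes, except that SNHG28 is annotated as protein-coding. The rule that chose them uses names and no measured value: every gene called SNHG (small nucleolar RNA host gene) with a number, 4 other snoRNA hosts (GAS5, ZFAS1, EPB41L4A-AS1 and DANCR), 3 RNAs retained in the nucleus (NEAT1, MALAT1 and KCNQ1OT1), 5 hosts of microRNAs, and 7 other long RNAs. Expression was measured by RNA sequencing in 9 libraries: 3 of cells treated with Carbo+COM33, 3 of cells treated with Carbo and 3 of control cells. The title of the series shows that Carbo stands for carboplatin, which acts by binding and crosslinking DNA. COM33 has only this code name in the labels. Cells of all 3 groups grew in RPMI medium with serum. Doses and times are not in the labels, and no library has COM33 without Carbo, so a difference from Carbo is one of COM33 added to carboplatin. The labels do not say whether libraries of a group came from separate cultures, so p-values measure the spread between these libraries, which may be technical.

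A snoRNA host is transcribed mainly to carry small nucleolar RNAs in its introns. The snoRNAs are cut out of the introns, and many of them guide the modification of ribosomal RNA, while the spliced exons are left over. In many hosts the transcript begins with a C followed by a run of pyrimidines, as the messenger RNAs of ribosomal proteins do, and the spliced RNA is engaged by ribosomes on short reading frames and then removed by nonsense-mediated decay. Its level therefore depends on transcription and on translation-linked decay. NEAT1 and MALAT1 work differently: they are made from neighbouring genes on chromosome 11, stay in the nucleus, and mark paraspeckles and nuclear speckles. KCNQ1OT1 is an antisense RNA that silences neighbouring genes of an imprinted locus on the same chromosome. Libraries were made from RNA caught on poly-T beads, so the snoRNAs and the mature microRNAs themselves were not analysed here.

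The starts of 11 hosts and of TUG1 are shown first because a pyrimidine run at the start is the sequence feature tied to translation-linked control. These genes were picked from the members called in a comparison below, so their share with a run does not stand for all hosts. GAS5, which was also called, and SNHG1 had no run in their RefSeq windows and are not shown. Each line gives 20 bases before and 30 bases from the RefSeq transcript start on (GRCh38.p14), read along the transcribed strand. Capitals mark a run that begins with C, has at least 4 more C or T, and begins within 5 bases of the start. The first 8 genes had such a run, and the last 4 had none in this window.
SNHG5 (chr6:85678704-85678753, minus strand): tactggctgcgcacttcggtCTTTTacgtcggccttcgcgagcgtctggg
SNHG7 (chr9:136728155-136728204, minus strand): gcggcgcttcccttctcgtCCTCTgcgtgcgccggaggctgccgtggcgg
SNHG8 (chr4:118278742-118278791, plus strand): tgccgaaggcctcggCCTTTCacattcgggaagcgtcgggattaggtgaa
SNHG12 (chr1:28581844-28581893, minus strand): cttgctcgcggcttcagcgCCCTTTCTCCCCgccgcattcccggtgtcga
SNHG16 (chr17:76557744-76557793, plus strand): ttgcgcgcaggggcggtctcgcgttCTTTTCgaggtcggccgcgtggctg
SNHG17 (chr20:38435299-38435348, minus strand): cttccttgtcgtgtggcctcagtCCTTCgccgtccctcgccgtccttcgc
SNHG19 (chr16:2155329-2155378, minus strand): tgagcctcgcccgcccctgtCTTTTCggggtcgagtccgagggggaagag
DANCR (chr4:52712374-52712423, plus strand): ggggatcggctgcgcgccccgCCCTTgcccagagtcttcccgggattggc
SNHG20 (chr17:77088623-77088672, plus strand): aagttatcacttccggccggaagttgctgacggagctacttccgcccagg
SNHG26 (chr7:22854220-22854269, plus strand): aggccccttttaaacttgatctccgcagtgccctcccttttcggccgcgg
EPB41L4A-AS1 (chr5:112160506-112160555, plus strand): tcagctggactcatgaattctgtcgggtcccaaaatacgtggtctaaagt
TUG1 (chr22:30969245-30969294, plus strand): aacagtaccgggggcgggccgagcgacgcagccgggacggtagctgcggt

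Of the 41 distinct names, 34 had a RefSeq start; KCNQ1OT1, NEAT1, PVT1, SNHG6, SNHG9, SNHG15 and SNHG25 are named only. The run stood in 10 of 23 windows of snoRNA hosts (43.5%), in 7 of 20 windows of the other members (35.0%) and in 7408 of 35116 windows of all RefSeq promoters (21.1%). Each host had 1 window, but MIR100HG had 6, LINC-PINT 4 and MALAT1 2; counted per gene, 5 of the 11 other members had a run (45.5%). Only the transcribed strand was searched. A match is a property of the RefSeq start chosen and was not a measurement of where transcription began in these cells. For GAS5, SNHG3, SNHG14, SNHG27, MIR17HG and MIR31HG the RefSeq window lies outside the gene as annotated by GENCODE.

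Total counts ran from 13851760 to 15533668 per library. SKOV3 cells expressed the epithelial markers KRT8 (42.5 to 61.3 FPKM over the 9 libraries) and KRT7 (27.8 to 90.9 FPKM), the ovarian lineage factor PAX8 (38.0 to 70.4 FPKM) and ERBB2, which is amplified in this line (141 to 245 FPKM). The ovarian tumour marker MUC16 lay at 0.0247 to 0.0646 FPKM. Among other markers looked up for this line, EPCAM had 6.19 to 9.26 FPKM and WT1 0.333 to 0.562 FPKM. Markers of blood cells and endothelium were at or near 0. Of the fibroblast markers, COL1A1 had 0.559 to 3.89 FPKM, and COL1A2, DCN and PDGFRB reached at most 0.0864 FPKM. KRT7 was lower in Carbo+COM33 than in Carbo (log2 fold change -1.21, adjusted p = 0.00893), as was ERBB2 (log2 fold change -0.57, adjusted p = 0.00508); the part of these in the results below was not tested. Of the 42 members, 37 had enough counts to be tested, among 16450 genes in all. The 5 hosts that did not pass this filter were SNHG9 (3 to 15 counts per library), SNHG22 (6 to 10), SNHG27 (0 to 9), SNHG21 (1 to 6) and SNHG25 (0 to 1). A gene was called at an adjusted p under 0.05. The p came from the quasi-likelihood test of edgeR and was adjusted by the Benjamini-Hochberg method over all 16450 genes. FPKM, the count per length of exon and library total, is used to compare genes. CPM, the count relative to the library total after TMM scaling, is used to compare libraries.

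The lowest mean level among the members was 0.0278 FPKM for SNHG25, which rests on 1 count in Carbo 3. The lowest tested member was SNHG28 at 0.146 FPKM. The highest mean over the 9 libraries was that of NORAD, a cytoplasmic RNA that binds PUMILIO proteins, at 112 FPKM (range 96.1 to 127). MALAT1 followed at 76.6 FPKM (54.6 to 105). Its range over all libraries overlapped that of NORAD, but within each library NORAD was higher. Among the snoRNA hosts SNHG1 led with 69.4 FPKM (62.5 to 76.2), then GAS5 with 64.6 FPKM (45.9 to 83.6) and SNHG8 with 46.6 FPKM (40.4 to 58.0). NEAT1 stood between GAS5 and SNHG8 with 55.9 FPKM (44.0 to 77.6). MALAT1, SNHG1, GAS5 and NEAT1 overlapped in their FPKM ranges over all libraries. Within each library MALAT1 exceeded NEAT1, and SNHG1 exceeded NEAT1 in all but control 1. The order of MALAT1, SNHG1 and GAS5 changed between libraries, as did that of GAS5 and NEAT1. FPKM divides the counts of NEAT1 by 22767 exon bases. In CPM, which does not divide by length, NEAT1 had the highest mean of the members (1275 CPM), against 677 for MALAT1, 602 for NORAD and 235 for GAS5. GAS5 and SNHG1 alone held 46.1% to 50.9% of all counts on snoRNA hosts. All these levels are of RNA caught on poly-T beads, and how fully each RNA was caught was not measured.

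MIR22HG, the host of miR-22, was the highest microRNA host at 33.4 FPKM (29.3 to 38.3). Below it came SNHG19 with 29.6 FPKM and SNHG5 with 26.8 FPKM. OIP5-AS1, an RNA antisense to the mitotic gene OIP5, had 19.9 FPKM and TUG1 19.2 FPKM. The hosts SNHG3, ZFAS1, SNHG6, SNHG7 and SNHG16 had means of 10.4 to 16.1 FPKM. PVT1, the neighbour of MYC, stood at 1.77 FPKM, while MYC itself had 52.9 to 65.9 FPKM. KCNQ1OT1 had 0.168 FPKM, although its 225 counts per library on average exceeded those of DANCR (156 counts). It is annotated as a single exon of 91667 bases, and FPKM divides by that length.

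**Figure D1:**
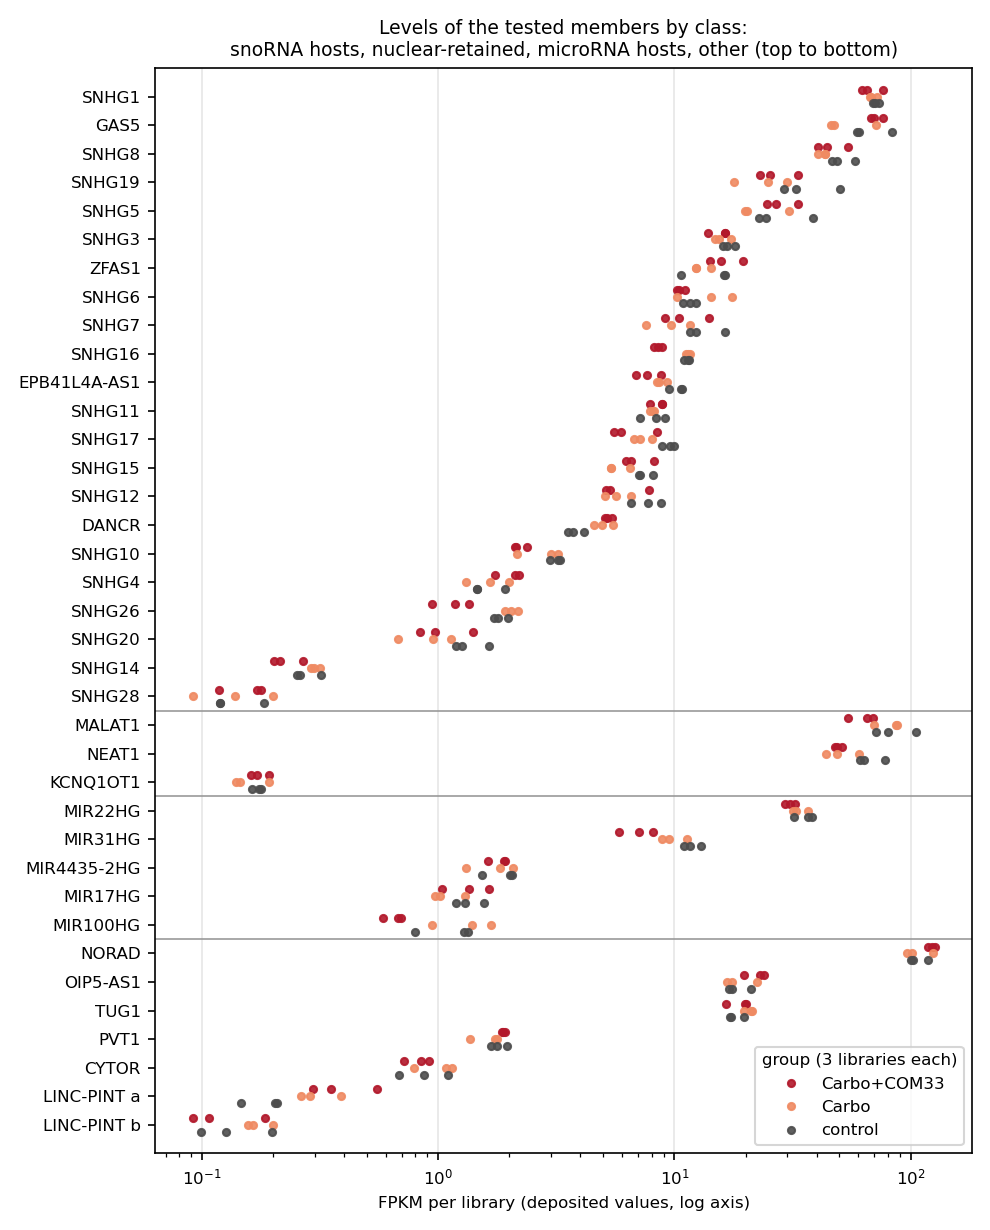
FPKM of the 37 tested members in each library on a log axis, grouped by class from top to bottom (snoRNA hosts, nuclear-retained, microRNA hosts, other), with the 3 libraries of each group as dots. LINC-PINT a is ENSG00000226380 and LINC-PINT b is ENSG00000231721. NORAD, MALAT1, SNHG1, GAS5 and NEAT1 form the top, and the groups lie close together relative to the distance between genes.

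The members also differed in structure. The 3 nuclear-retained genes are annotated as single exons with a median exonic length of 22767 bases. The 22 tested snoRNA hosts had a median of 4 exons (counted on the union of transcripts) and 3639 bases, against 9 exons and 4460.5 bases over all tested genes. Their median GC content was 49.2%, and that of all tested genes 48.3%. SNHG7 was the tested host richest in GC (65.9%), and SNHG26 had 39.2%. SNHG14, from the imprinted Prader-Willi region, spans 84 annotated snoRNA genes and was low at 0.269 FPKM. SNHG1 spans 7 annotated snoRNA genes and was the highest host. For GAS5, the next highest, 0 were found in this annotation although it is a snoRNA host, so these counts may be incomplete. SNHG8, which followed, spans 1.

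Carbo against control asks what carboplatin did to these RNAs. In a test paired by replicate number, several snoRNA hosts and NEAT1 were lower in the Carbo libraries, while DANCR and TUG1 were higher. The test without pairing called 0 of 16450 genes (0%) and hence 0 of 37 members, with edgeR. With no adjustment, p was under 0.05 for 2748 genes (16.7%) and 11 of the 37 members. DESeq2 called 0 members and 133 of the 11347 genes to which it gave an adjusted p (1.17%), 86 of them higher (0.758%) and 47 lower (0.414%). Carbo and control libraries with the same replicate number deviated together from their group means, so the comparison was also made within replicate numbers. The labels state no pairing, so the reason to pair comes from the same data that the test uses. That paired test called 3739 genes (22.7%), 1847 of them higher (11.2%) and 1892 lower (11.5%). It called 13 of the 37 members: 2 were higher in Carbo and 11 were lower. With the same pairing fitted to all 9 libraries instead of these 6, 0 genes and 0 members were called. Among the 22 tested snoRNA hosts 10 fell and 1 rose, with a median log2 fold change of -0.16, against -0.0016 over all tested genes. Of the nuclear-retained RNAs 1 of 3 fell, of the microRNA hosts 0 of 5 were called, and of the other long RNAs 1 of 7 rose. Values of the Carbo and control libraries did not overlap for 9 of 37 members, close to the share of all tested genes (22.5%). Fewer cells making an RNA and less RNA per cell cannot be told apart in bulk libraries.

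NEAT1, the scaffold of paraspeckles (ENSG00000245532, chr11:65422774-65445540), had 1371, 1094 and 1004 CPM in Carbo 1 to 3 and 1773, 1435 and 1388 CPM in control 1 to 3. All 3 Carbo libraries lay below all 3 control libraries. NEAT1 fell in the paired test by 0.41 on the log2 scale (SE 0.04, adjusted p = 1.06e-05, lower in 3 of 3 pairs). Its unpaired adjusted p was 0.220. With a library left out that p ran up to 0.628, and it passed the threshold in 1 of 9 cases, without Carbo 1 (0.0169). Counts per gene do not separate the short NEAT1 form from the long form that builds paraspeckles. MALAT1, an RNA of nuclear speckles (ENSG00000251562, chr11:65497688-65506516), had 769, 756 and 619 CPM in Carbo and 933, 624 and 703 CPM in control. These groups overlapped, and the paired log2 fold change was -0.06 (SE 0.07, adjusted p = 0.587). KCNQ1OT1 (ENSG00000269821, chr11:2608328-2699994) had 12.6, 17.4 and 13.2 CPM in Carbo and 16.3, 14.8 and 15.9 CPM in control, with a paired log2 fold change of -0.12 (adjusted p = 0.516). KCNQ1, the potassium channel gene on the other strand, had 2.27 ± 0.742 CPM in Carbo and 5.50 ± 0.730 CPM in control (SD, n = 3) and fell in the paired test by 1.28 on the log2 scale (adjusted p = 6.10e-04). The unpaired adjusted p of KCNQ1 was 0.220, and its counts ran from 25 to 89 per library.

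Of the 2 most abundant snoRNA hosts, GAS5 fell and SNHG1 was not called. GAS5, which accumulates in growth-arrested cells (ENSG00000234741, chr1:173863900-173868882), had 257, 170 and 167 CPM in Carbo and 305, 213 and 218 CPM in control. Replicate 1 was the highest in both groups, so the groups overlapped while each pair went the same way. GAS5 fell in the paired test by 0.32 on the log2 scale (SE 0.05, adjusted p = 1.82e-04), and its unpaired adjusted p was 0.362. With a library left out the unpaired log2 fold change ran from -0.54 to -0.12 and the adjusted p up to 0.799, with 1 of 9 under the threshold, that without Carbo 1 (0.0316). SNHG1, whose introns carry a cluster of box C/D snoRNAs (ENSG00000255717, chr11:62851988-62855914), had 269, 250 and 256 CPM in Carbo and 277, 257 and 264 CPM in control. Its paired log2 fold change was -0.05 (SE 0.04, adjusted p = 0.512). The difference between these 2 fold changes was not tested.

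SNHG19, a short host of SNORD60, had the largest fall in size among the members called in the paired test. With GC and length trends removed, as described below, SNHG20 (-0.51) and NEAT1 (-0.48) fell more than SNHG19 (-0.45). SNHG19 had 10.2, 6.05 and 8.51 CPM in Carbo and 17.3, 9.86 and 11.2 CPM in control (paired log2 fold change -0.63, SE 0.13, adjusted p = 0.00216). SNHG20, host of SCARNA16, had 6.86, 5.73 and 4.11 CPM in Carbo and 10.1, 7.59 and 7.18 CPM in control. It fell in the paired test (log2 fold change -0.58, SE 0.15, adjusted p = 0.0124), but not without replicate 3 (adjusted p = 0.0712).

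SNHG7, host of the SNORA17 genes, had 50.3, 41.6 and 33.1 CPM in Carbo and 71.1, 53.0 and 50.1 CPM in control. Each Carbo library lay below the control library of its number, and the paired log2 fold change was -0.48 (SE 0.07, adjusted p = 1.36e-04). SNHG12, host of SNORD99, had 27.9, 23.8 and 21.6 CPM in Carbo and 37.6, 32.8 and 27.7 CPM in control (paired log2 fold change -0.42, SE 0.08, adjusted p = 0.00108). SNHG17, whose introns carry the SNORA71 genes, had 28.2, 33.4 and 29.99 CPM in Carbo and 37.4, 41.4 and 40.0 CPM in control, without overlap (paired log2 fold change -0.38, SE 0.07, adjusted p = 0.00143). SNHG15, host of SNORA9, had 23.5, 19.4 and 19.6 CPM in Carbo and 29.6, 25.6 and 26.0 CPM in control, also without overlap (paired log2 fold change -0.38, SE 0.08, adjusted p = 0.00356).

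SNHG5, host of SNORD50B, had 85.7, 56.1 and 55.7 CPM in Carbo and 109, 67.7 and 63.5 CPM in control. As in GAS5, replicate 1 stood above the others in both groups. It fell in the paired test (log2 fold change -0.28, SE 0.06, adjusted p = 0.00250). SNHG8, host of SNORA24, had 37.1, 39.5 and 40.2 CPM in Carbo and 53.7, 44.7 and 42.6 CPM in control (paired log2 fold change -0.27, SE 0.08, adjusted p = 0.0229). Most of that difference lay in replicate 1: without it the log2 fold change was -0.13 (adjusted p = 0.251), and without replicate 2 the adjusted p was 0.0582. EPB41L4A-AS1, host of SNORA13, had 30.8, 28.3 and 28.2 CPM in Carbo and 36.05, 35.2 and 31.6 CPM in control (paired log2 fold change -0.24, SE 0.08, adjusted p = 0.0317, and 0.292 without replicate 2).

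DANCR, host of SNORA26 and an RNA known to hold back differentiation of progenitor cells, was the snoRNA host that rose. It had 12.5, 10.3 and 11.3 CPM in Carbo and 9.50, 7.99 and 8.48 CPM in control. All 3 Carbo libraries lay above all 3 control libraries, and the paired log2 fold change was 0.39 (SE 0.12, adjusted p = 0.0316). It was not called with any pair left out (adjusted p = 0.0630 without replicate 1, 0.129 without replicate 2 and 0.0939 without replicate 3). TUG1, an RNA first described for its need in the developing mouse retina, had 200, 212 and 218 CPM in Carbo and 176, 174 and 198 CPM in control. It rose in the paired test (log2 fold change 0.20, SE 0.05, adjusted p = 0.00637), but not without replicate 2 (log2 fold change 0.16, adjusted p = 0.189).

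**Figure D2:**
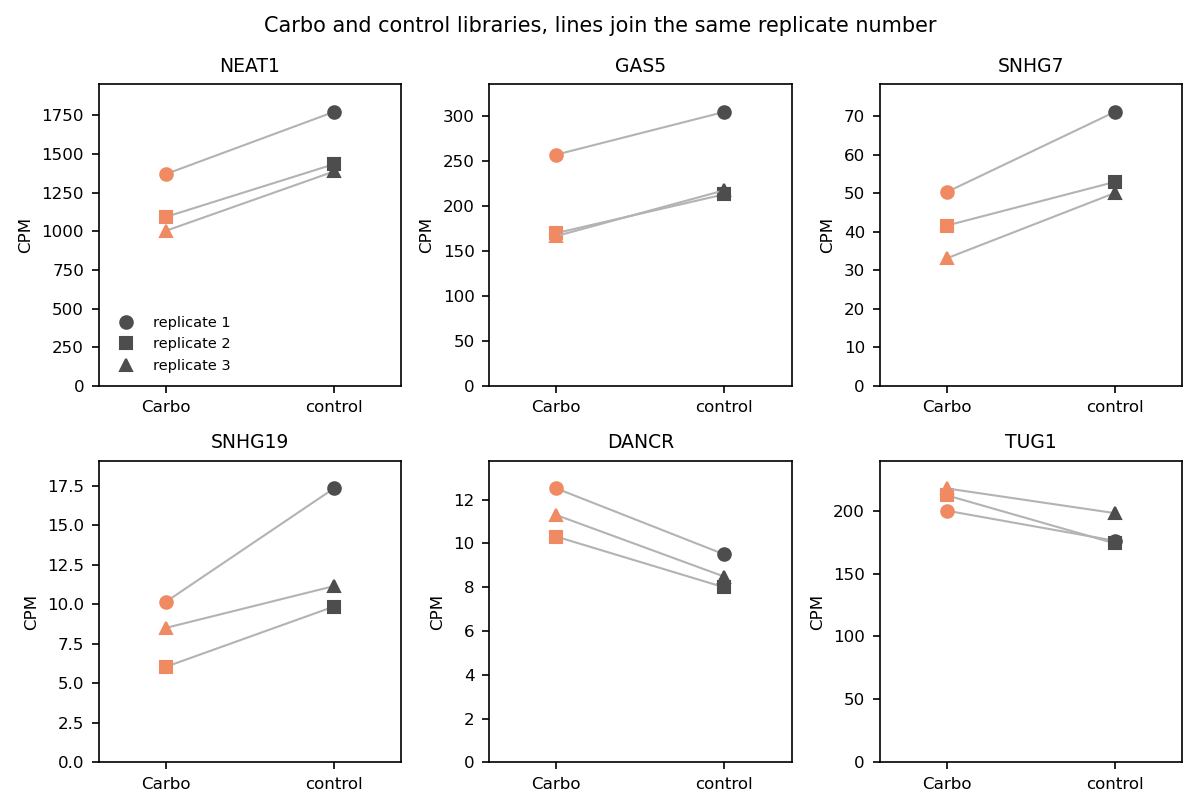
CPM of 6 members in the Carbo and control libraries (y axes start at 0). Lines join libraries of the same replicate number, which share circle, square or triangle. NEAT1, GAS5, SNHG7 and SNHG19 are lower in Carbo in all 3 pairs, DANCR and TUG1 are higher in all 3, and replicate 1 is the highest in both groups for the first 5.

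ZFAS1, which hosts the SNORD12 snoRNAs (ENSG00000177410, chr20:49278178-49295738), had 32.0, 27.5 and 27.8 CPM in Carbo and 36.8, 23.8 and 36.1 CPM in control. Its pairs did not all go 1 way, and the paired log2 fold change was -0.13 (adjusted p = 0.359). LINC-PINT stands under 2 identifiers. The first (ENSG00000226380, chr7:130876809-130913310) had 1.88, 2.55 and 1.74 CPM in Carbo and 1.39, 1.33 and 0.958 CPM in control. That is 25 to 40 counts in Carbo against 14 to 20 in control, without overlap, with a paired log2 fold change of 0.74 (SE 0.31, adjusted p = 0.0949). The second (ENSG00000231721, chr7:130938963-131110176) had 1.41, 1.46 and 1.81 CPM in Carbo and 0.901, 1.13 and 1.78 CPM in control (adjusted p = 0.549). The microRNA hosts had paired log2 fold changes of -0.31 for MIR17HG to 0.22 for MIR100HG, with a lowest adjusted p of 0.0931. The 9 other tested hosts that were not called lay between -0.19 for SNHG10 and 0.25 for SNHG6, and NORAD, OIP5-AS1, PVT1 and CYTOR between -0.16 and 0.18.

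Trends of the counts with GC content and exon length can differ between libraries. With these trends removed, the paired test called 1734 genes (10.5%), 941 higher (5.72%) and 793 lower (4.82%). It called 12 of the 37 members, 1 higher and 11 lower. NEAT1 (log2 fold change -0.48), GAS5 (-0.43), SNHG19 (-0.45), SNHG17 (-0.32), SNHG15 (-0.36), SNHG12 (-0.29), SNHG5 (-0.29), SNHG20 (-0.51), EPB41L4A-AS1 (-0.30) and DANCR (0.50) were still called. SNHG7 (-0.20, adjusted p = 0.0679), SNHG8 (-0.20, adjusted p = 0.114) and TUG1 (0.10, adjusted p = 0.181) were not, while SNHG1 (-0.14, adjusted p = 0.0475) and OIP5-AS1 (-0.15, adjusted p = 0.0460) were. Replicate 1 was the highest library in both Carbo and control for 17 of the 37 members (45.9%) and for 12 of the 22 snoRNA hosts, against 23.8% of all tested genes. What sets replicate 1 apart was not tested.

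**Figure D3:**
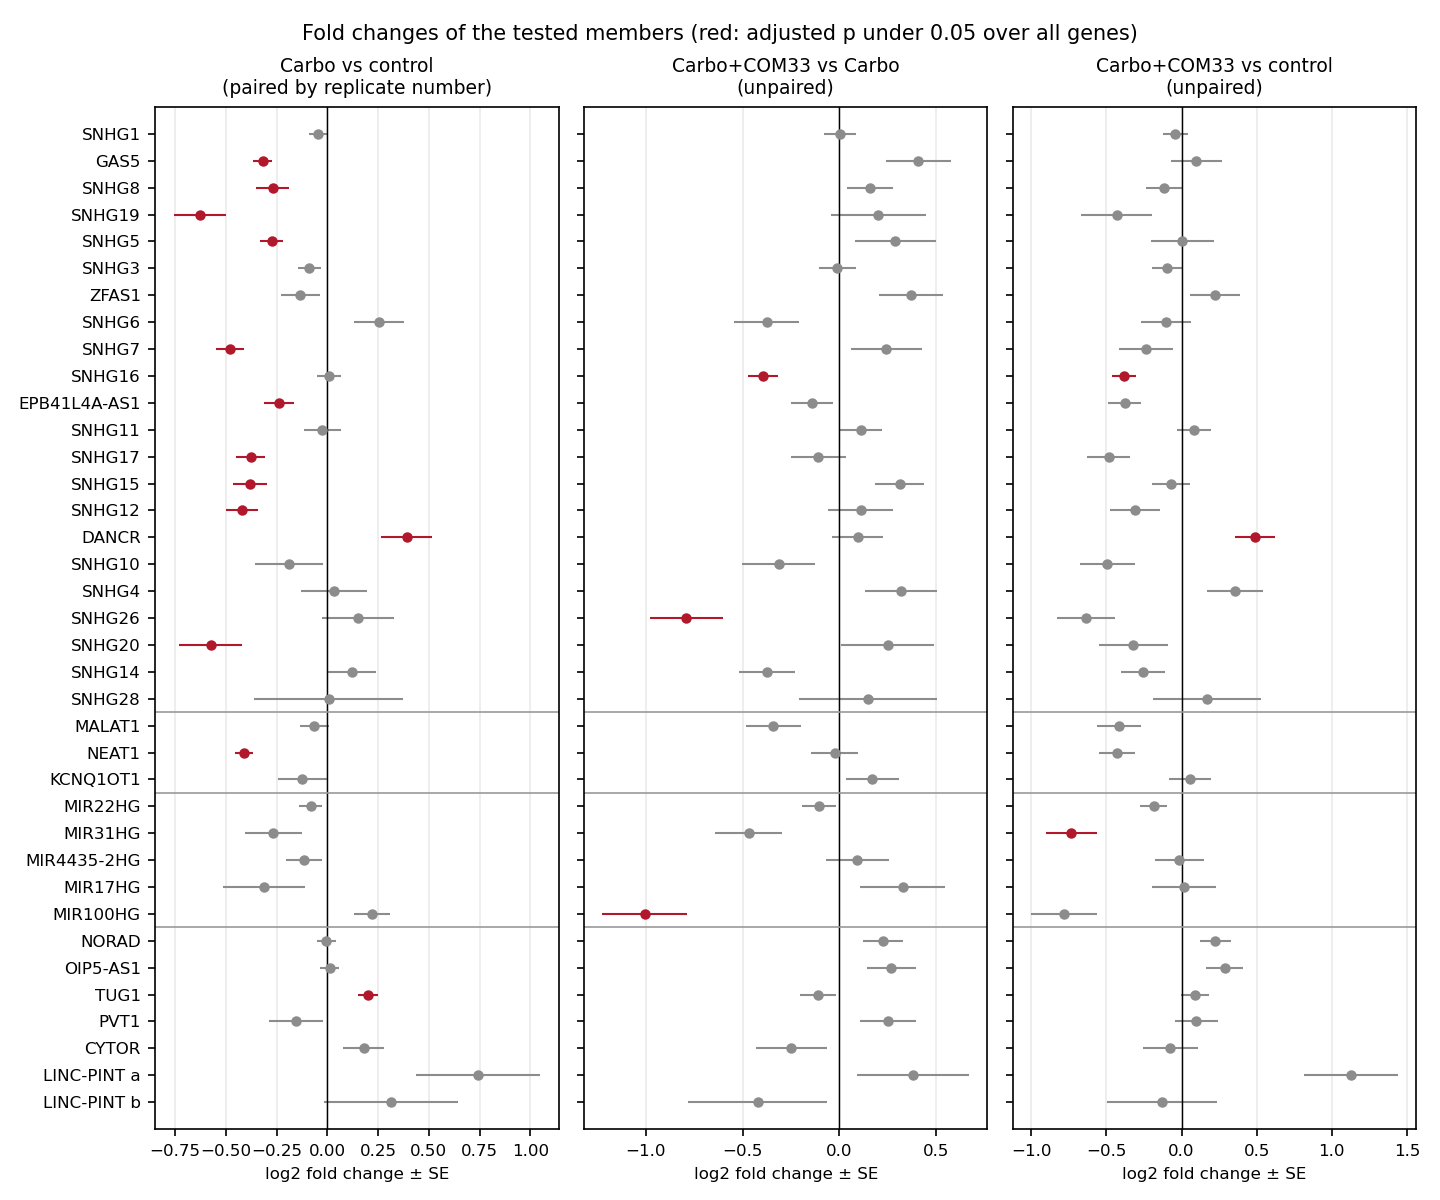
Log2 fold changes with SE of the 37 tested members, paired by replicate number for Carbo vs control and unpaired for the 2 comparisons of Carbo+COM33, on separate x axes. Red marks an adjusted p under 0.05. Of the 11 hosts marked in the left panel 10 lie below 0, and in each of the other panels 3 members are marked.

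Carbo+COM33 against Carbo asks what COM33 did on top of carboplatin. SNHG16, SNHG26 and MIR100HG were lower with COM33, and no member was called higher. These 3 of 37 members stand beside 816 of 16450 genes called (4.96%), 400 higher (2.43%) and 416 lower (2.53%). DESeq2 also called 3 members, all lower, among 1340 of its 15174 genes (8.83%), 661 higher (4.36%) and 679 lower (4.47%). Of the snoRNA hosts 2 of 22 fell and 0 rose, with a median log2 fold change of 0.11, against -0.0064 over all tested genes. This comparison uses the same Carbo libraries as the one above, so low values there are low in both.

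SNHG16, host of the SNORD1 genes (ENSG00000163597, chr17:76557766-76565348), had 48.4, 46.3 and 44.2 CPM in Carbo+COM33 and 59.8, 60.3 and 62.4 CPM in Carbo. The gap between the groups was wider than either group's range. It fell by 0.39 on the log2 scale (SE 0.08, adjusted p = 0.0144). Left-out libraries moved that adjusted p to between 0.00714 and 0.0807, and it passed 0.05 without Carbo 2 (0.0807), Carbo 3 (0.0618) or Carbo+COM33 2 (0.0677). SNHG26, host of SNORD93 (ENSG00000228649, chr7:22854178-22861579), had 3.61, 3.14 and 2.49 CPM in Carbo+COM33 and 5.31, 4.97 and 5.72 CPM in Carbo. These are 36 to 49 counts against 78 to 82 counts per library, and the log2 fold change was -0.79 (SE 0.19, adjusted p = 0.0331). It was called in 3 of the 9 fits with a library left out. The adjusted p was 0.0560 without control 2, 0.103 without Carbo 2, 0.121 without Carbo 3, and 0.0610, 0.105 and 0.0871 without Carbo+COM33 1, 2 and 3. In the 6 libraries of these groups alone it was 0.0633.

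MIR100HG, the host of miR-100, let-7a and miR-125b (ENSG00000255248, chr11:122028327-122556721), had 13.7, 13.3 and 11.4 CPM in Carbo+COM33 and 18.2, 26.5 and 32.4 CPM in Carbo. The Carbo libraries were spread widely, and all lay above the Carbo+COM33 libraries. MIR100HG fell by 1.01 on the log2 scale (SE 0.22, adjusted p = 0.0207). It was called in 4 of the 9 fits with a library left out, and not without Carbo 2 (0.0957), Carbo 3 (0.0870) or Carbo+COM33 1, 2 or 3 (0.0726, 0.0734 and 0.0773). With limma on log2(FPKM + 0.1) the log2 fold change was -0.90 (adjusted p = 0.0817), and on log2(FPKM + 1), which understates changes of low genes, -0.49 (adjusted p = 0.0852). The mature microRNAs within MIR100HG and within MIR31HG, described below, show which small RNAs these hosts carry, and their levels were not measured in these libraries. Capitals mark the seed, bases 2 to 8, and the sequences are from RefSeq (GRCh38.p14). No seed is shared among them.
hsa-miR-100-5p (MIR100HG, chr11:122152275-122152296, minus strand): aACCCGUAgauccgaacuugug
hsa-let-7a-5p (MIR100HG, chr11:122146568-122146589, minus strand): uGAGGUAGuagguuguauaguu
hsa-miR-125b-5p (MIR100HG, chr11:122099809-122099830, minus strand): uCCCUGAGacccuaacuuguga
hsa-miR-31-5p (MIR31HG, chr9:21512158-21512178, minus strand): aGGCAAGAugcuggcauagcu

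GAS5 had 283, 249 and 256 CPM in Carbo+COM33 and 257, 170 and 167 CPM in Carbo. Carbo 1 lay among the Carbo+COM33 libraries, and the log2 fold change of 0.41 (SE 0.17) was not called (adjusted p = 0.173). Without Carbo 1 it was 0.64 (adjusted p = 0.00434). ZFAS1 had 44.8, 35.8 and 32.1 CPM in Carbo+COM33 and 32.0, 27.5 and 27.8 CPM in Carbo (log2 fold change 0.37, SE 0.16, adjusted p = 0.206). ZNFX1, on the strand opposite to ZFAS1, had a log2 fold change of 0.23 (adjusted p = 0.103). SNHG1 had 249, 238 and 289 CPM in Carbo+COM33 and 269, 250 and 256 CPM in Carbo, with a log2 fold change of 0.0029 (adjusted p = 0.989). EPB41L4A-AS1 had 26.2, 23.3 and 29.6 CPM in Carbo+COM33 and 30.8, 28.3 and 28.2 CPM in Carbo (log2 fold change -0.14, adjusted p = 0.479).

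The nuclear-retained RNAs were not called in this comparison. NEAT1 had 1113, 1121 and 1175 CPM in Carbo+COM33 and 1371, 1094 and 1004 CPM in Carbo, with a log2 fold change of -0.02 (SE 0.12, adjusted p = 0.933). MALAT1 had 624, 582 and 487 CPM in Carbo+COM33 and 769, 756 and 619 CPM in Carbo, where Carbo 3 overlapped with Carbo+COM33 1 (log2 fold change -0.34, SE 0.14, adjusted p = 0.182). KCNQ1OT1 had 15.1, 15.8 and 17.9 CPM in Carbo+COM33 and 12.6, 17.4 and 13.2 CPM in Carbo (log2 fold change 0.17, adjusted p = 0.509). The other members had log2 fold changes from -0.47 for MIR31HG (adjusted p = 0.128) to 0.38 for LINC-PINT ENSG00000226380 (adjusted p = 0.480). The values of the 2 groups did not overlap for 7 of 37 members, below the 23.7% of all tested genes.

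Carbo+COM33 against control sets the combined treatment beside untreated cells. SNHG16 and MIR31HG were lower with the combination and DANCR was higher. These are 3 of 37 members, beside 1035 of 16450 genes (6.29%), 527 higher (3.20%) and 508 lower (3.09%). DESeq2 called 8 members, 2 higher and 6 lower, among 1563 of its 14536 genes (10.8%), 846 higher (5.82%) and 717 lower (4.93%). The control libraries are those used for Carbo, and the Carbo+COM33 libraries those of the preceding comparison. Values of the 2 groups did not overlap for 12 of 37 members, close to the 28.7% of all tested genes. The 22 tested hosts had a median log2 fold change of -0.11, and all tested genes one of -0.01.

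SNHG16 had the 44.2 to 48.4 CPM given above in Carbo+COM33, against 62.0, 58.5 and 60.7 CPM in control. It fell by 0.38 on the log2 scale (SE 0.08, adjusted p = 0.0164). The call was lost without control 2 (adjusted p = 0.0772), control 3 (0.0719), Carbo+COM33 1 (0.0628) or Carbo+COM33 2 (0.0864). In Carbo against control the log2 fold change of SNHG16 was 0.0079 in the paired test (adjusted p = 0.948). MIR31HG, the host of miR-31 and neighbour of the CDKN2A locus (ENSG00000171889, chr9:21455642-21559669), had 4.42, 6.15 and 5.33 CPM in Carbo+COM33, 7.06, 8.34 and 6.62 CPM in Carbo, and 8.25, 9.59 and 8.62 CPM in control. All 3 Carbo+COM33 libraries lay below the other 6. Against control it fell by 0.73 on the log2 scale (SE 0.17, adjusted p = 0.0267). The adjusted p was 0.134 without control 2, 0.0853 without control 3, 0.139 without Carbo+COM33 1 and 0.0612 without Carbo+COM33 2. It was 0.0618 after the GC and length trends were removed.

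DANCR had 12.7, 12.0 and 11.7 CPM in Carbo+COM33, and its control values are those above (7.99 to 9.50 CPM). It rose by a log2 fold change of 0.49 (SE 0.13, adjusted p = 0.0490), just under the threshold. The adjusted p passed 0.05 without control 2 (0.209), control 3 (0.146), Carbo 2 (0.0658), Carbo 3 (0.0526), Carbo+COM33 1 (0.194) or Carbo+COM33 2 (0.145), and was 0.0624 without the filter on low counts. LINC-PINT ENSG00000226380 had 1.99, 3.70 and 2.35 CPM in Carbo+COM33, above all control libraries, and a log2 fold change of 1.13 (SE 0.31) that missed the threshold (adjusted p = 0.0504). Carbo+COM33 2 was its highest library with 53 counts, against 27 and 34 in the others of that group. LINC-PINT ENSG00000231721 had 1.69, 0.978 and 0.831 CPM in Carbo+COM33, with Carbo+COM33 3 below and the others within the range of control (log2 fold change -0.13, adjusted p = 0.866).

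NEAT1 in Carbo+COM33 (1113 to 1175 CPM) lay below every control library (1388 to 1773 CPM), with a log2 fold change of -0.43 (SE 0.12, adjusted p = 0.0529). MALAT1 in Carbo+COM33 (487 to 624 CPM) lay just below the control libraries (624 to 933 CPM), with a log2 fold change of -0.42 (SE 0.14, adjusted p = 0.0996). MIR100HG had 11.4 to 13.7 CPM in Carbo+COM33, below the 15.5, 25.7 and 24.8 CPM in control, and a log2 fold change of -0.78 (SE 0.22, adjusted p = 0.0526). EPB41L4A-AS1 (log2 fold change -0.38, adjusted p = 0.0563), SNHG17 (-0.49, adjusted p = 0.0592) and SNHG26 (-0.64, adjusted p = 0.0661) also missed the threshold narrowly. SNHG17 had 25.5, 23.5 and 35.8 CPM in Carbo+COM33, below all its control libraries. SNHG26 had 2.49 to 3.61 CPM in Carbo+COM33 and 4.71, 5.13 and 4.52 CPM in control. GAS5 (0.10, adjusted p = 0.764), SNHG5 (0.0056, adjusted p = 0.991) and SNHG1 (-0.04, adjusted p = 0.815) were not called.

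**Figure D4:**
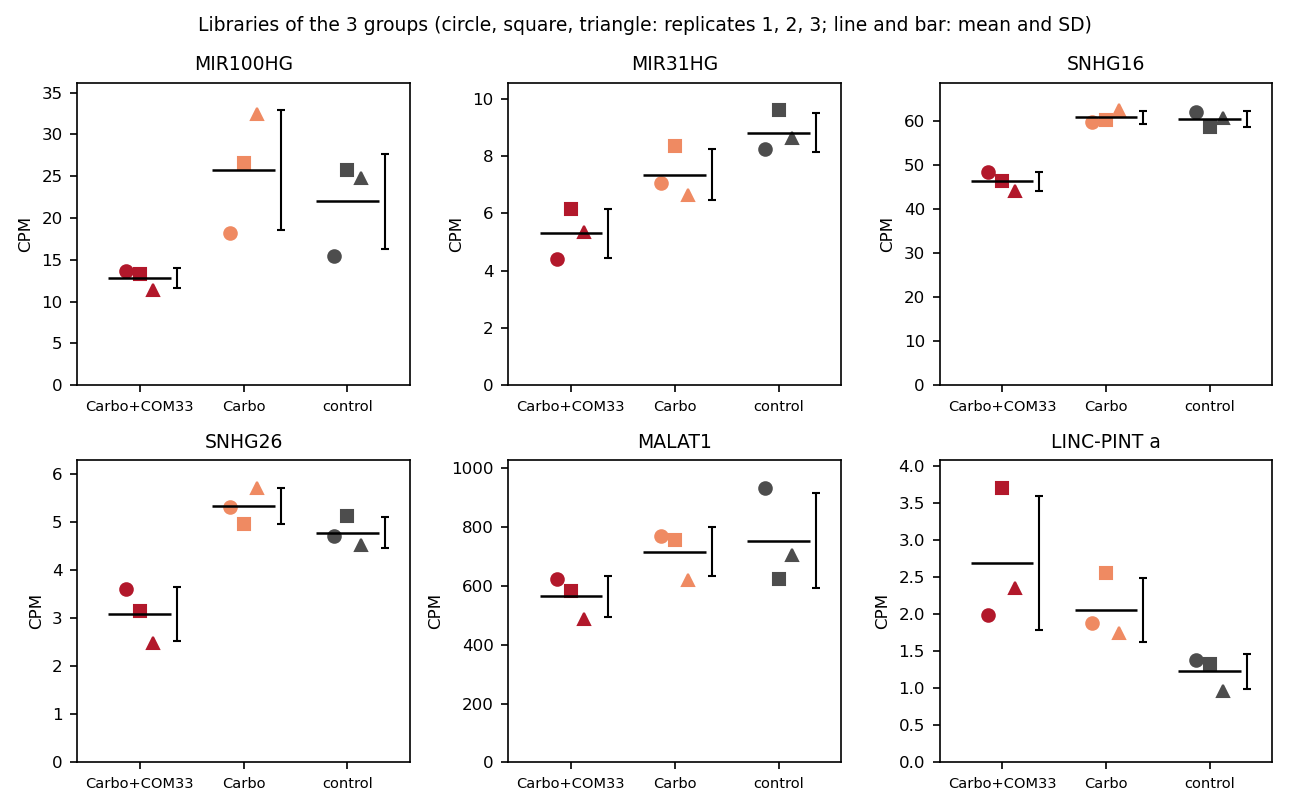
CPM of 6 members in Carbo+COM33, Carbo and control (y axes start at 0), with replicate numbers as circle, square and triangle, and group mean (line) with SD (bar, n = 3). LINC-PINT a is ENSG00000226380. MIR100HG, MIR31HG, SNHG16 and SNHG26 have all 3 Carbo+COM33 libraries below the other 6, and LINC-PINT a has all 3 above control.

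The other hosts that fell in the paired test of Carbo against control, and TUG1, which rose there, had these values in Carbo+COM33. SNHG7 had 40.6, 45.9 and 61.4 CPM, SNHG12 had 23.2, 22.1 and 33.7 CPM and SNHG19 had 8.84, 7.96 and 11.6 CPM. SNHG5 had 77.0, 70.1 and 94.2 CPM, SNHG8 had 41.8, 37.9 and 50.4 CPM and SNHG15 had 23.2, 24.2 and 30.1 CPM. In each of these 6, Carbo+COM33 3 was the highest library of its group. SNHG20 had 6.04, 5.17 and 8.66 CPM in the same order, and TUG1 209, 204 and 170 CPM. None of these 8 was called against Carbo or against control.

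The summed level of the 27 snoRNA hosts was set against that of NEAT1, MALAT1 and KCNQ1OT1 in each library. Hosts summed to 350, 325 and 383 FPKM in Carbo+COM33, to 359, 309 and 317 FPKM in Carbo, and to 438, 349 and 357 FPKM in control. The nuclear-retained RNAs summed to 117, 114 and 106 FPKM in Carbo+COM33, to 148, 135 and 114 FPKM in Carbo, and to 183, 135 and 142 FPKM in control. The ratio of hosts to nuclear-retained RNAs was 2.98, 2.86 and 3.62 in Carbo+COM33, 2.42, 2.28 and 2.78 in Carbo, and 2.39, 2.58 and 2.52 in control. Every Carbo+COM33 library lay above the other 6, and Carbo and control overlapped. The mean ratio was 3.15 ± 0.412 in Carbo+COM33, 2.49 ± 0.258 in Carbo and 2.50 ± 0.0963 in control (SD, n = 3 each). The difference of mean log2 ratios was 0.34 for Carbo+COM33 minus Carbo, 0.33 for Carbo+COM33 minus control and -0.0072 for Carbo minus control. When each gene counted equally (the mean of log2 CPM over tested genes), the first 2 differences were 0.09 and 0.13. Carbo 3 (-3.23) and control 2 (-3.34) then lay within the range of the Carbo+COM33 libraries (-3.36 to -3.20). FPKM divides by exon length, which is large for NEAT1 and KCNQ1OT1. In summed CPM the nuclear-retained RNAs exceeded the hosts in every library, with log2 ratios from -1.14 (control 1) to -0.59 (Carbo+COM33 3). These are descriptions with no test, and they compare only the RNA caught on poly-T beads.

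**Figure D5:**
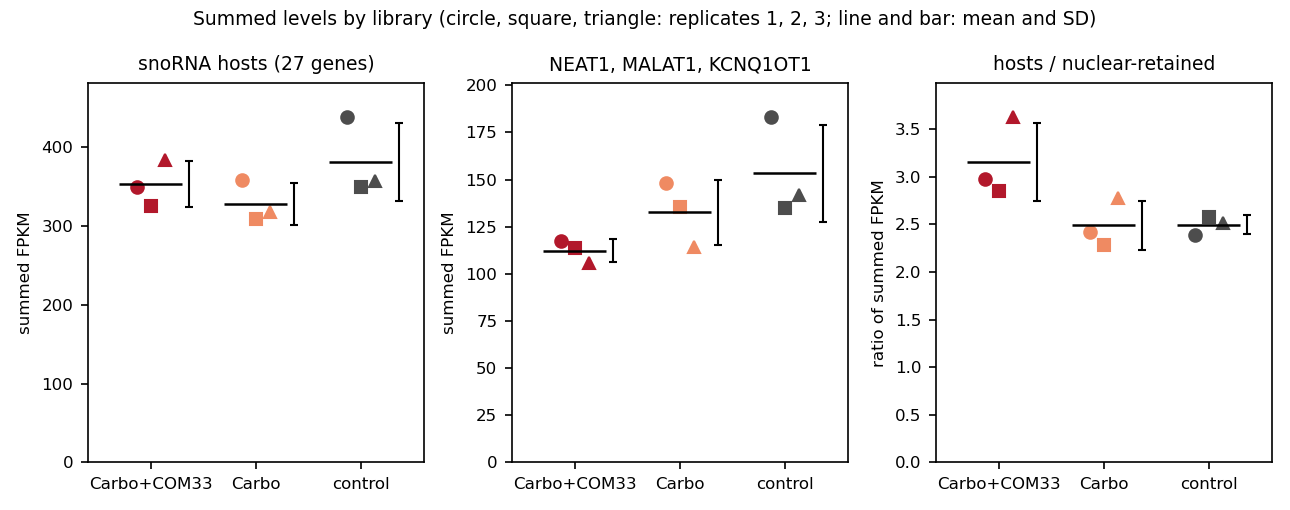
Summed FPKM of the 27 snoRNA hosts (left), of the 3 nuclear-retained RNAs (middle) and their ratio (right) per library in Carbo+COM33, Carbo and control, with group mean (line) and SD (bar, n = 3). The ratio is 2.86 to 3.62 in Carbo+COM33 and 2.28 to 2.78 in the other 6 libraries.

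Lists of genes related to these RNAs were set beside all tested genes. Of 18 proteins and assembly factors of snoRNPs, the particles in which snoRNAs work, 4 fell and 0 rose in the paired test of Carbo against control (22.2%, close to the 22.7% of all tested genes). With the GC and length trends removed 1 of the 18 was called, lower. NOP10, of the box H/ACA particle, had 37.7 ± 11.6 CPM in Carbo and 51.7 ± 5.12 CPM in control (SD, n = 3; log2 fold change -0.48, adjusted p = 0.00151). NHP2 of the same particle had a log2 fold change of -0.43, RRP9, which binds the U3 snoRNA, one of -0.33, and RUVBL1, an assembly ATPase, one of -0.20. The methyltransferase FBL (-0.12, adjusted p = 0.144) and the pseudouridine synthase DKC1 (-0.12, adjusted p = 0.0767) were not called. In the comparisons of Carbo+COM33 the lowest adjusted p of the 18 was 0.123 against Carbo and 0.0563 against control.

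Of 16 paraspeckle proteins, which bind NEAT1, 2 rose and 5 fell in Carbo against control when paired, beside 22.7% of all tested genes called. With the GC and length trends removed 0 were called higher and 5 lower, so the rises named next were not called there. NONO, a core protein, rose (log2 fold change 0.15, adjusted p = 0.0187), as did NUDT21 (0.13, adjusted p = 0.0462). Among those that fell were TAF15 (-0.33), HNRNPH3 (-0.28), HNRNPK (-0.13) and SMARCA4 (-0.13). SFPQ, the partner of NONO, had a log2 fold change of 0.10 (adjusted p = 0.150). Against control, SMARCA4 was also lower in Carbo+COM33 (-0.31, adjusted p = 0.0425).

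Of 16 factors of nonsense-mediated decay, 1 rose and 4 fell in Carbo against control when paired, beside the same 22.7% of all genes. With the GC and length trends removed 0 were called higher and 3 lower. MAGOH, a subunit of the exon junction complex, had 24.3 ± 2.98 CPM in Carbo and 38.8 ± 5.37 CPM in control (log2 fold change -0.67, adjusted p = 1.67e-05). UPF3A (-0.24), SMG9 (-0.20) and DHX34 (-0.19) also fell, UPF2 rose (0.18), and the helicase UPF1 was not called (-0.06, adjusted p = 0.386). With COM33 the lowest adjusted p of the 16 was 0.186 against Carbo and 0.0666 against control. A list of 19 messenger RNAs outside the ribosomal proteins was taken as starting with such a pyrimidine run. Their own starts were not looked at here. Of these 19, 3 rose and 3 fell in Carbo against control when paired, again beside 22.7% of all genes. With the GC and length trends removed 3 were called higher and 1 lower. EEF1D (-0.41), RACK1 (-0.18) and EEF1B2 (-0.14) fell, while EIF3L (0.29), EIF3E (0.26) and NAP1L1 (0.18) rose. EEF1A1 (-0.03, adjusted p = 0.750) and EEF2 (0.04, adjusted p = 0.581) were not called. EIF4B was lower in Carbo+COM33, with 200 ± 3.44 CPM against 272 ± 22.1 CPM in Carbo (log2 fold change -0.44, adjusted p = 0.0106) and against 264 ± 15.5 CPM in control (-0.40, adjusted p = 0.0172). EEF1D was lower in Carbo+COM33 than in control (-0.53, adjusted p = 0.0123).

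Some members share exon bases with other genes, and whether counting used the strand is not given in the sources used here. EPB41L4A-AS1 shares 49.6% of its exon bases with EPB41L4A on the other strand (169 counts per library on average), MIR31HG 40.7% with the pseudogene IFNWP19 (37.2 counts) and SNHG7 25.2% with FAM69B (72.6 counts). SNHG16 shares 30.6% with AC015802.6, which had 1.56 counts, and ZFAS1 11.1% with ZNFX1, which had 2088 counts. On the same strand, the 2 LINC-PINT genes share 30.4% and 21.7% with AC016831.6 (113 counts). SNHG20, with 99.6 counts per library on average, shares 7.56% with SEC14L1, which had 4151 counts. CYTOR and MIR4435-2HG are near-identical copies, so reads may be split between them: CYTOR had 175 to 295 counts and MIR4435-2HG 254 to 421 counts, and neither was called. KCNQ1OT1 shares 0.132% with KCNQ1, and no gene of the count table was found to share exon bases with NEAT1.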

How the data were processed

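RNA was sequenced from 9 SKOV3 libraries, 3 per group. Per the labels' protocols, RNA was selected on poly-T beads and read as paired ends. The authors deposited read counts per gene, whole numbers, and FPKM values. The submitters' processing notes name GRCh38 and, as tools, HISAT2, HTSeq 0.11.2 and DESeq2 1.26.0; strand setting and filters are not given in the sources used here. The deposited FPKM equal the count over the union exon length and total count for 32283 genes (41 of the 42 members, not TUG1, within a relative tolerance of 1e-06). All 32378 identifiers matched GENCODE 29, the source of coordinates; start and microRNA sequences are from RefSeq.

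Genes were filtered with filterByExpr of edgeR 4.0.16 (R 4.3.3), scaled by TMM and fitted with the quasi-likelihood model on counts of all 9 libraries, 1 mean per group, which leaves 6 residual degrees of freedom. Adjusted p-values are Benjamini-Hochberg values over 16450 genes. Each SE is the log2 fold change without its sign over the square root of F. The unpaired fit to 9 libraries was tested on simulated counts without a replicate effect. The replicate block and the GC and length correction were not tested in this way. Among 6607 genes with mean log2 CPM over 5, deviations of same-numbered Carbo and control libraries correlated at 0.824, 0.565 and 0.748 (replicates 1 to 3), so this comparison was also fitted to its 6 libraries with a block for replicate number (2 residual degrees of freedom). The labels do not say what the numbers mark. GC and length trends were removed with library offsets from splines (5 degrees of freedom). Alternatives used DESeq2 1.42.0, limma 3.58.1 on log2(FPKM + 0.1) and log2(FPKM + 1), other scaling and filters, and each library left out. Figures used matplotlib 3.10.9, tables pandas 2.3.3 and numpy 2.4.6 in Python 3.11.15.

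The members and lists were chosen with earlier results of these data known. Values of each library are given for members called in the unpaired fit or with the block, and for GAS5, SNHG1, ZFAS1, EPB41L4A-AS1, NEAT1, MALAT1, KCNQ1OT1 and LINC-PINT. Other genes are named where they overlap a member, were called within a list of related genes, or stand first in it; 1 called gene of these lists is not reported here. Count depth limits the precision for members under about 100 counts.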

Additional observations from a re-analysis of the deposited data

How the results depend on the processing

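The counts of calls moved more with the settings than the fold changes did. In Carbo vs control 0 genes were called, and 928 without a filter on low counts, 133 with DESeq2, 3739 with the replicate block in the 6 libraries, 0 with the block over all 9 libraries, 1734 with the block and the GC and length correction, and 4338, 1623 and 2842 with the block and replicate 1, 2 or 3 left out of both groups (these 3 chosen after seeing the data). Members called were 0, and 5 without the filter, 13 with the block, 0 with the block over all 9 libraries, 12 with the block and correction, and 12, 9 and 11 with the block and a pair left out. Leaving out single libraries gave 0 to 1026 genes and 0 to 3 members. In Carbo+COM33 vs Carbo 816 genes were called, and 1876 without the filter, 1235 with the GC and length correction, 1554 with the block over all 9 libraries, 1340 with DESeq2, 446 and 447 with limma on log2(FPKM + 0.1) and log2(FPKM + 1), 502 with the block, and 128 to 2717 with a library left out. Members called were 3, and 6 without the filter, 1 with the block (MIR100HG) and 0 to 7 with a library left out. In Carbo+COM33 vs control 1035 genes were called, and 1934 without the filter, 1625 with the block over all 9 libraries, 1563 with DESeq2, 652 and 656 with limma, 1700 with the block and correction, and 119 to 2189 with a library left out. In the 6 libraries of these groups 1462 genes were called unpaired and 1129 (6.86%) with the block. Members called were 3, and 8 without the filter, 9 with the block over all 9 libraries, 8 with DESeq2, 7 in the 6 libraries of those groups, 6 with the block, 8 with the block and correction and 0 to 8 with a library left out. The cause was not tested. Same-numbered libraries did not pair in these 2 comparisons: the correlations were -0.015, 0.138 and -0.388 for Carbo+COM33 with Carbo and 0.0851, 0.101 and -0.420 with control. The block ended the calls of SNHG16 (adjusted p = 0.0987) and SNHG26 (0.108, and 0.0599 with the correction) against Carbo. It changed calls of named members in Carbo+COM33 vs control for MIR100HG, NEAT1, SNHG17 and MALAT1 (gained) and DANCR (lost). The ratio of hosts to nuclear-retained RNAs moved to 0.085 and 0.13 on the log2 scale (Carbo+COM33 minus Carbo and minus control) when genes counted equally. Signs changed for these values, none of them called in the unpaired fit; SNHG5 in Carbo vs control (-0.28) and SNHG7 in Carbo+COM33 vs control (-0.23) were not near 0, and SNHG5 was called with the block. In Carbo vs control these were SNHG16 (-0.050 with the correction and -0.049 with block and correction; -0.0055 and -0.0025 with the block without replicate 2 or 3; -0.013 to 0.029 with a library left out), ZFAS1 (0.0053 with block and correction), MALAT1 (0.047 and 0.0010 with the block without replicate 1 or 3; -0.19 to 0.11 with a library left out) and SNHG5 (-0.52 to 0.0063 with a library left out). In Carbo+COM33 vs Carbo they were NEAT1 (0.063 and, with block, 0.078 after the correction; -0.12 to 0.12 with a library left out) and SNHG1 (-0.029 with both limma fits; -0.085 to 0.066 with a library left out). SNHG17 (-0.32 to 0.013) and SNHG12 (-0.11 to 0.22) changed sign there with a library left out. In Carbo+COM33 vs control SNHG7 changed sign after the correction (0.016 and, with block, 0.029). With a library left out so did SNHG5 (-0.14 to 0.30), LINC-PINT ENSG00000231721 (-0.48 to 0.19), SNHG15 (-0.19 to 0.0094), SNHG1 (-0.13 to 0.023) and KCNQ1OT1 (-0.019 to 0.11). Members with few counts (LINC-PINT, SNHG28, SNHG26) are limited by depth.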
